A study of Mus musculus with 7 samples.

Results

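The 4 genes that encode the subunits of the AMPA receptor, Gria1, Gria2, Gria3 and Gria4, were followed in mouse hippocampus with and without the splicing regulator Khdrbs3, together with their alternative flip and flop exons. They were taken by gene name from the table of 38924 gene records, and all of their exon bins were taken from the counts of 359565 bins. An exon bin is a stretch of exon that does not change between transcripts of a gene. The 4 genes held 103 bins (26 in Gria1, 19 in Gria2, 37 in Gria3 and 21 in Gria4). All 4 genes passed the filter on low counts, and 91 of the 103 bins passed the filter for exon usage (22, 19, 30 and 20 in that order).

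Polyadenylated RNA was sequenced from dissected tissue of adult mice as 7 libraries. Ammon's horn comprises the CA fields. It came from knockout (KO) mice, homozygous for the Khdrbs3 deletion (3 libraries). The dentate gyrus came from wild-type (WT) mice (1 library), and WT Ammon's horn was what both were set against (3 libraries). Khdrbs3 encodes the RNA-binding protein T-STAR, also called SLM2. The Tstar null allele of the colony had been backcrossed to C57Bl6 for 8 generations, and the labels name no Cre driver. The labels do not say whether the libraries of a group came from separate animals, so the p-values measure the spread between libraries. The dentate gyrus library has no replicate and was assumed to vary as the Ammon's horn libraries did. The knockout and dentate gyrus comparisons share the 3 WT Ammon's horn libraries.

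AMPA receptors are tetramers of GluA1 to GluA4, the products of Gria1 to Gria4, and carry most of the fast excitatory current at synapses of the brain. In hippocampal pyramidal and granule cells GluA1 and GluA2 are the main subunits, GluA2 makes the channel nearly impermeable to calcium once its mRNA has been edited, and GluA4 is used more in interneurons. Each gene carries a pair of mutually exclusive exons, flip and flop, which encode a short stretch within the ligand-binding domain. That stretch affects how fast the channel desensitises. The flip exon is the version with a serine codon where flop has an asparagine codon, a position known to determine the response to cyclothiazide.

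Both exons are 115 bases long in all 4 genes, and flop comes first in the transcript. Coordinates are on mm10. Flip and flop lie at chr11:57310608-57310722 and chr11:57309769-57309883 on the plus strand in Gria1. They lie at chr3:80690404-80690518 and chr3:80691320-80691434 on the minus strand in Gria2. They lie at chrX:41669501-41669615 and chrX:41654810-41654924 on the plus strand in Gria3. They lie at chr9:4427030-4427144 and chr9:4432773-4432887 on the minus strand in Gria4. All 8 exons are coding. The annotation also lists a Gria3 transcript, Gria3-206, that holds both exons, and its part in the Gria3 reads was not tested. The sequences are shown because these exons are what separates the forms that were counted. They were read from GENCODE M21 transcripts, 5′ to 3′ on the coding strand, and capitals mark the bases at which flip and flop of the same gene differ.
Gria1 flip: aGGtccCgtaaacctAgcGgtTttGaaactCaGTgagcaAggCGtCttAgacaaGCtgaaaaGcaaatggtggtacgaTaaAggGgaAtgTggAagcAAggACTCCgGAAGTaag
Gria1 flop: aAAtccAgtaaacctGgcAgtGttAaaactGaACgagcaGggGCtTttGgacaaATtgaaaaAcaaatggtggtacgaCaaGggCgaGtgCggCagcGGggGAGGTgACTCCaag
Gria2 flip: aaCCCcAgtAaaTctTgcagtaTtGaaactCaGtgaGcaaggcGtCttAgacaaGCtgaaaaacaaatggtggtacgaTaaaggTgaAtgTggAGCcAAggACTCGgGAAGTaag
Gria2 flop: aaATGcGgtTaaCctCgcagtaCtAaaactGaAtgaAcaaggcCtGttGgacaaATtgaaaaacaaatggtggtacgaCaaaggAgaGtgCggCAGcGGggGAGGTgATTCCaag
Gria3 flip: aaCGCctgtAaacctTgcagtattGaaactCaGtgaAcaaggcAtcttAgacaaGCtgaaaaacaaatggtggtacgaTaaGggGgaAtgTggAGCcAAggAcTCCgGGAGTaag
Gria3 flop: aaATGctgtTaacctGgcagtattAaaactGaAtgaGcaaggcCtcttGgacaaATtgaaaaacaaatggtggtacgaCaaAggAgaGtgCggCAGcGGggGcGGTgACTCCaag
Gria4 flip: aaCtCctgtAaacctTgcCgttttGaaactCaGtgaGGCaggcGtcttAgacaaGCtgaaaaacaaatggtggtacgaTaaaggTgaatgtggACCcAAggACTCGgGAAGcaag
Gria4 flop: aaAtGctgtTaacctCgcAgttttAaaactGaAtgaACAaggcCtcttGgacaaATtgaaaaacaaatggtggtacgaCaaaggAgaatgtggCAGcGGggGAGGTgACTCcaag
Flip and flop were identical at 79 of 115 bases in Gria1 and in Gria2, 83 in Gria3 and 84 in Gria4. Exons of the same form in different genes were closer to each other than flip was to flop of the same gene, with 87.8% to 94.8% of bases identical. The closest were flop of Gria3 and flop of Gria4, which shared 109 of 115 bases. How reads that fit more than 1 of these exons were treated is not given in the sources used here.

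The libraries held between 50230733 and 67692326 gene counts and between 29698245 and 39904606 exon-bin counts. The deletion was checked in the second exon bin of Khdrbs3, which held 6, 9 and 7 reads in knockout libraries, against 808, 1103 and 964 in WT Ammon's horn. The gene-table level of Khdrbs3 went the other way, at 198, 203 and 197 CPM in the KO and 142, 143 and 134 CPM in WT Ammon's horn, so the check rests on that bin. The dissections were checked in marker genes. Prox1, a granule cell transcription factor, stood at 210 CPM (reads scaled to the size of the library) in the dentate gyrus and at 24.1, 18.9 and 27.9 CPM in WT Ammon's horn, and Fibcd1, a CA1 marker, at 19.6 CPM in the dentate gyrus and at 203, 212 and 232 CPM in WT Ammon's horn. Wfs1 and C1ql2, the other markers used as examples of CA1 and granule cells, stood on the same sides. By gene-table counts, 7 of the 8 granule cell markers passed as higher in the dentate gyrus and 1, Pdzd2, as lower, at 519 CPM in the dentate gyrus and 699, 702 and 692 CPM in WT Ammon's horn. All 8 CA1 markers passed as lower. Markers of CA2 and CA3 did not separate the tissues in this way: of 8, 2 passed as higher in the dentate gyrus and 1 as lower. Their sum was 368 CPM in the dentate gyrus and 302, 330 and 337 CPM in WT Ammon's horn. Libraries differed in choroid plexus tissue. Its 8 markers summed to 792, 18.98 and 735 CPM in the KO, 266 CPM in the dentate gyrus and 151, 38.9 and 21.2 CPM in WT Ammon's horn, so KO replicates 1 and 3 stand apart.

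Per length of annotated exon, the order of the subunits was Gria1, Gria2, Gria3 and Gria4 in each of the 7 libraries. The levels below are exon-bin CPM per kilobase. Gria1 stood at 162 ± 4.87 in knockout Ammon's horn (SD, n = 3), 196 in the dentate gyrus and 161 ± 3.84 in WT Ammon's horn (n = 3). Gria2 stood at 98.5 ± 4.36 in the KO, 126 in the dentate gyrus and 98.2 ± 3.69 in WT Ammon's horn. Gria3 stood at 36.2 ± 1.45 in the KO, 36.3 in the dentate gyrus and 33.6 ± 2.19 in WT Ammon's horn. Gria4 was the least abundant, at 11.3 ± 0.667 in the KO, 8.01 in the dentate gyrus and 10.5 ± 0.632 in WT Ammon's horn. The ranges of neighbouring subunits did not overlap in any group with replicates.

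As a share of the 4 subunits' reads per kilobase, Gria1 and Gria2 together made up most of the AMPA receptor mRNA. Gria1 took 52.5% ± 0.164 in the KO, 53.5% in the dentate gyrus and 53.2% ± 0.619 in WT Ammon's horn. Gria2 took 32.0% ± 0.362 in the KO, 34.4% in the dentate gyrus and 32.3% ± 0.630 in WT Ammon's horn. The dentate gyrus share of Gria2 lay above the Ammon's horn range of 31.7% to 32.9%. Gria3 took 11.8% ± 0.242 in the KO, 9.91% in the dentate gyrus and 11.04% ± 0.378 in WT Ammon's horn. Its knockout libraries lay at 11.6% to 12.04% and its WT Ammon's horn libraries at 10.7% to 11.4%, close together without overlap. The difference was not tested, and how often other shares lay without overlap was not counted. Gria4 took 3.68% ± 0.304 in the KO, 2.19% in the dentate gyrus and 3.45% ± 0.134 in WT Ammon's horn. Counted over coding exons alone, which leaves out the long 3′ untranslated regions, Gria1 stood at 46.4% in the KO, 46.9% in the dentate gyrus and 47.1% in WT Ammon's horn, and Gria2 stood at 39.1%, 41.8% and 39.5% in the same groups.

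**Figure D1:**
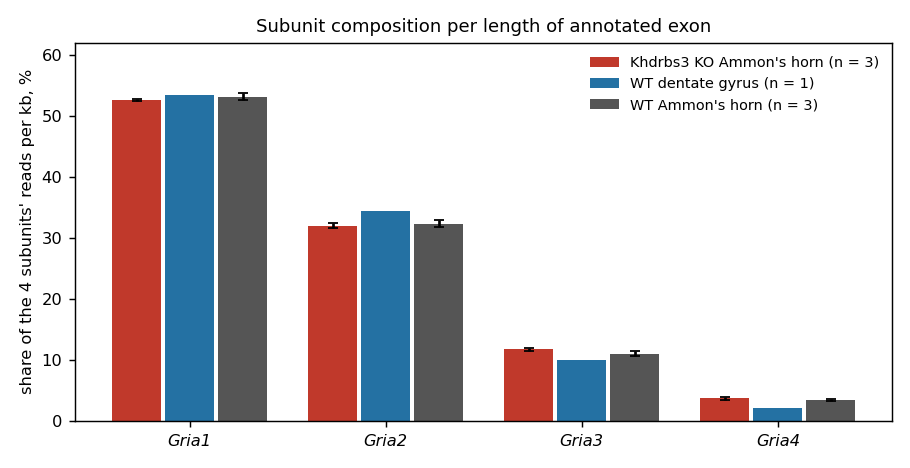
Share of each subunit in the summed reads per kilobase of annotated exon of Gria1 to Gria4, in percent. Bars are the mean of 3 libraries with SD for knockout and WT Ammon's horn and the single library for the dentate gyrus. Gria1 stands at 52.5% to 53.5% in the 3 groups and Gria4 at 2.19% to 3.68%.

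No change in the level of a subunit gene passed the test in mice without Khdrbs3. Of all 22830 genes tested, 17 passed at a Benjamini-Hochberg adjusted p under 0.05 in edgeR's quasi-likelihood test (0.0745%), and none of the 4 subunit genes was among them. At an unadjusted p under 0.05, 8.38% of all genes and 1 of the 4 members passed. Leaving out either of the KO libraries with much choroid plexus RNA brought no member past the threshold. Each of these fits keeps the other such library, so neither takes the choroid plexus difference away. The gene table counts introns together with exons, and its levels are given in CPM.

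Gria1 had 734, 795 and 761 CPM in the KO and 741, 749 and 757 CPM in WT Ammon's horn. The wild-type values lie inside the knockout range, and the log2 fold change was 0.03 ± 0.05 (SE, 95% interval -0.09 to 0.14, adjusted p = 0.919). Gria2 had 478, 529 and 516 CPM in the KO and 516, 480 and 507 CPM in WT Ammon's horn. The groups overlap over most of their range, and the log2 fold change was 0.02 ± 0.06 (interval -0.11 to 0.15, adjusted p = 0.955). For these main subunits the intervals span changes of at most 1.11-fold.

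Gria3 had 156, 170 and 172 CPM in the KO and 161, 153 and 153 CPM in WT Ammon's horn. Knockout replicates 2 and 3 were the highest and replicate 1 lay among the WT libraries, with a log2 fold change of 0.09 ± 0.06 (adjusted p = 0.694). Gria4 had 69.3, 67.1 and 67.2 CPM in the KO and 61.0, 63.6 and 58.5 CPM in WT Ammon's horn. Here the groups did not overlap, which was not counted over all genes. The log2 fold change was 0.15 ± 0.05 (interval 0.05 to 0.26, unadjusted p = 0.00897, adjusted p = 0.443), so the gene did not pass over all genes tested. In the sums of exon bins the Gria4 groups overlapped, at 69.3, 66.7 and 62.4 CPM in the KO and 63.7, 61.95 and 58.7 CPM in WT Ammon's horn (log2 fold change 0.11 ± 0.06, adjusted p = 0.715). Of all genes 0.0523% passed in the KO exon sums, and none of the 4 members did. None of the 10 interneuron markers passed the test. Their sum was 850, 806 and 822 CPM in the KO and 796, 768 and 719 CPM in WT Ammon's horn, 7 of the 10 had a positive log2 fold change and 3 a negative one, and their part in the Gria4 values was not tested. Gad1 and Gad2, which make the transmitter GABA, had log2 fold changes of 0.16 ± 0.07 and 0.17 ± 0.07 (adjusted p = 0.586 and 0.524). The 8 oligodendrocyte markers summed to 3816, 3706 and 3961 CPM in the KO and 4500, 4401 and 4336 CPM in WT Ammon's horn, and 1 of the 8 passed as lower. In bulk tissue, fewer cells of a type and less RNA per cell cannot be told apart.

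**Figure D2:**
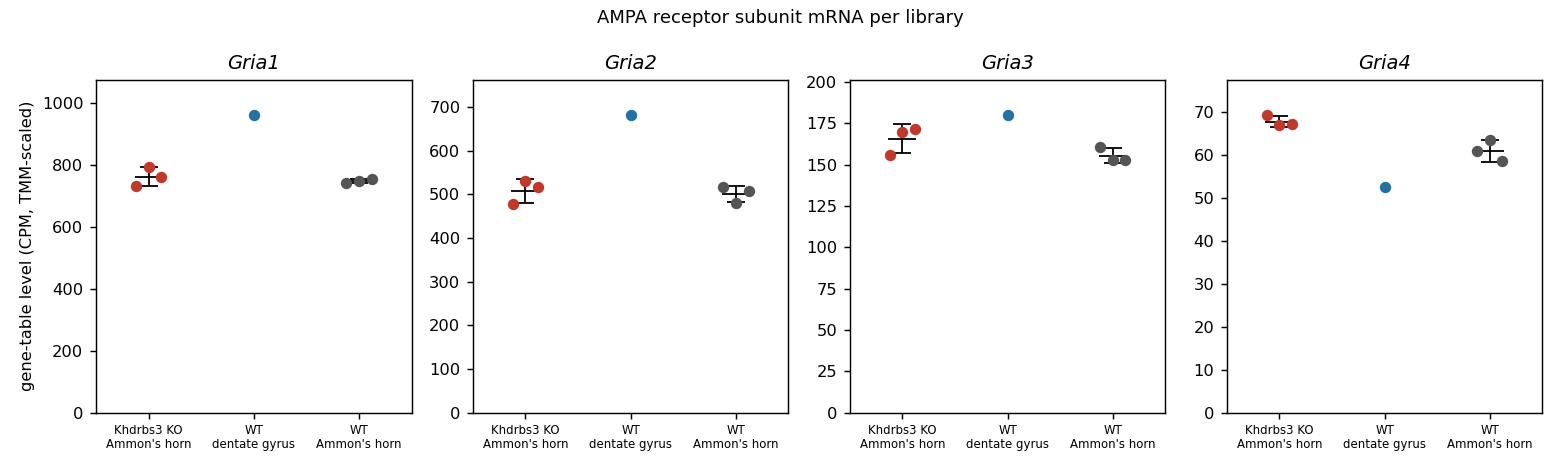
Gene-table level of each subunit gene in CPM, 1 point per library, with the mean and SD of 3 libraries as a line and bar where there are replicates. The dentate gyrus point stands above every Ammon's horn library for Gria1 (961 CPM), Gria2 (681 CPM) and Gria3 (180 CPM) and under them for Gria4 (52.6 CPM).

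The dentate gyrus had more Gria1 and Gria2 mRNA than Ammon's horn. Gria1 had 961 CPM in the dentate gyrus and 741, 749 and 757 CPM in WT Ammon's horn, a rise of 1.28-fold (log2 fold change 0.36 ± 0.07, adjusted p = 0.00429). Gria2 had 681 CPM in the dentate gyrus and 516, 480 and 507 CPM in WT Ammon's horn, a rise of 1.36-fold (0.44 ± 0.08, adjusted p = 0.00275). Of all genes tested, 22.0% passed in this comparison and 11.2% passed as higher, so a call here is common. Both subunits also passed in the sums of exon bins, at 0.33 ± 0.06 (adjusted p = 0.00139) and 0.41 ± 0.07 (adjusted p = 0.00102), where 29.3% of all genes passed.

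Gria3 and Gria4 did not pass in the gene table. Gria3 had 180 CPM in the dentate gyrus, above the 161, 153 and 153 CPM of WT Ammon's horn, with a log2 fold change of 0.21 ± 0.08 that missed the threshold (adjusted p = 0.0802). Its exon sums gave 0.17 ± 0.08 (adjusted p = 0.140). Gria4 lay on the other side, at 52.6 CPM in the dentate gyrus and 61.0, 63.6 and 58.5 CPM in WT Ammon's horn. Its log2 fold change of -0.22 ± 0.07 missed the threshold in the gene table (adjusted p = 0.0533), and its value of -0.33 ± 0.09 passed it in the exon sums (adjusted p = 0.0155, where 14.5% of all genes passed as lower), at 48.8 CPM in the dentate gyrus and 63.7, 61.95 and 58.7 CPM in WT Ammon's horn. Whether the change of Gria4 differs from that of Gria1 or Gria2 was not tested.

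Markers of several cell types differed between the dissections beside these values. The interneuron markers summed to 589 CPM in the dentate gyrus and 796, 768 and 719 CPM in WT Ammon's horn, and 7 of the 10 passed as lower and 1 as higher. Gad2 was among those that fell (log2 fold change -0.30 ± 0.09, adjusted p = 0.0439), while Gad1 had 214 CPM in the dentate gyrus and 236, 213 and 191 CPM in WT Ammon's horn. The 6 markers of oligodendrocyte precursors summed to 159 CPM in the dentate gyrus and 238, 238 and 248 CPM in WT Ammon's horn, with 4 lower. The 8 oligodendrocyte markers were all lower, with sums of 1518 CPM in the dentate gyrus and 4500, 4401 and 4336 CPM in WT Ammon's horn. The part of these cells in the differences of the subunit genes was not tested.

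The balance of flip and flop reads set Gria2 and Gria3 apart in Ammon's horn, while Gria1 and Gria4 overlapped. Flip is given as a percentage of flip plus flop reads, with the mean ± SD over 3 libraries. Gria3 was mostly flip, at 72.8% ± 2.82 in the KO, 78.8% in the dentate gyrus and 74.8% ± 2.35 in WT Ammon's horn. Gria2 had somewhat more flop than flip, with flip at 41.2% ± 1.73 in the KO, 44.4% in the dentate gyrus and 40.6% ± 1.76 in WT Ammon's horn. Gria1 was mostly flop, with flip at 29.8% ± 0.787 in the KO, 30.9% in the dentate gyrus and 28.2% ± 2.69 in WT Ammon's horn. Gria4 lay near Gria1, with flip at 29.9% ± 3.87 in the KO, 34.6% in the dentate gyrus and 34.2% ± 1.92 in WT Ammon's horn. Across the 6 Ammon's horn libraries Gria1 (25.2% to 30.7%) and Gria4 (27.1% to 35.9%) overlapped, whereas Gria2 (38.6% to 42.8%) and Gria3 (70.4% to 77.3%) each lay apart from the others. The overlap came from the KO, where Gria1 lay at 29.3% to 30.7% and Gria4 at 27.1% to 34.3%. In WT Ammon's horn alone Gria1 (25.2% to 30.5%) lay under Gria4 (32.1% to 35.9%), a difference that was not tested.

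The flip shares of KO and WT Ammon's horn were compared in each gene. In Gria1 the KO libraries had 394, 424 and 343 flip reads beside 890, 1024 and 825 flop reads, and the WT libraries had 290, 453 and 435 flip reads beside 859, 1115 and 992 flop reads. Wild-type replicate 1, at 25.2%, was the lowest and all other libraries lay between 28.9% and 30.7%. The knockout minus wild-type difference was 1.57 percentage points (exact two-sided permutation test, p = 0.4). Without WT replicate 1 it was 0.0909 points, and the usage change of the Gria1 flip bin in the test described next was -0.0412 on the log2 scale. In Gria2 it was 0.539 points (exact p = 0.6), from 996 to 1284 reads in each KO library and 993 to 1378 in each WT library. In Gria3 it was -1.95 points (exact p = 0.4), from 267 to 317 reads in each KO library and 215 to 313 in each WT library. In Gria4 it was -4.39 points (exact p = 0.2). Gria4 had only 59 to 71 flip and flop reads in each KO library and 39 to 84 in each WT library, so the 95% Clopper-Pearson interval of its wild-type replicate 1 ran from 21.2% to 52.8%. With 3 libraries against 3 the smallest p that this test can give is 0.1, and after adjustment over the 4 genes the p-values were between 0.533 and 0.6. Intervals cover counting error only.

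**Figure D3:**
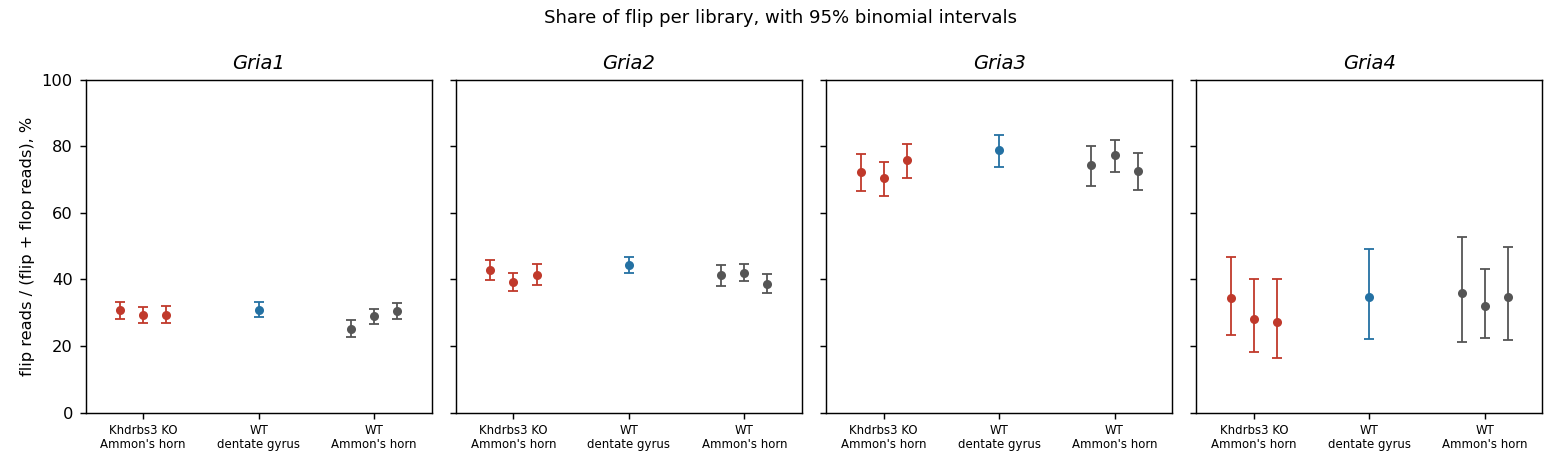
Flip reads as a percentage of flip plus flop reads in each library, with 95% Clopper-Pearson intervals that cover counting error only. Gria3 lies at 70.4% to 78.8% and the other genes at 25.2% to 44.4%, and the intervals are widest in Gria4, which had 39 to 84 reads per library.

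The usage test, which sets the change of a bin against that of its whole gene across all bins in the files, was applied to the same exons. In the KO 5 of 166154 bins passed (0.00301%) and none of the 91 members did, nor did any member reach an unadjusted p under 0.05, where 1.72% of all bins lay. The usage of flip had a log2 fold change of 0.06 ± 0.08 in Gria1, 0.01 ± 0.09 in Gria2, 0.06 ± 0.13 in Gria3 and 0.01 ± 0.29 in Gria4. The usage of flop had -0.05 ± 0.08 in Gria1, -0.02 ± 0.09 in Gria2, 0.22 ± 0.19 in Gria3 and 0.26 ± 0.21 in Gria4. The adjusted p of each of these was 1.0. The standard errors of Gria4 are about as large as its values or larger.

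In 3 genes the dentate gyrus flip share lay just above all 6 Ammon's horn libraries, a position that was not counted over other exons. It was 30.9% in Gria1 (520 flip and 1164 flop reads), 44.4% in Gria2 (683 and 857) and 78.8% in Gria3 (242 and 65), or 2.67, 3.74 and 4.03 percentage points over the mean of WT Ammon's horn. The Gria1 difference was 1.19 points without WT replicate 1. In Gria4, with 18 flip and 34 flop reads, the difference was 0.371 points. The intervals of the single library, 28.7% to 33.2% in Gria1, 41.9% to 46.9% in Gria2 and 73.8% to 83.3% in Gria3, each reach into the Ammon's horn range. In the usage test 360 of 169072 bins passed (0.213%) and none of the 91 members. The flip log2 fold changes were 0.08 ± 0.11 in Gria1, 0.10 ± 0.13 in Gria2, 0.14 ± 0.18 in Gria3 and 0.23 ± 0.44 in Gria4 (adjusted p = 1.0 for each).

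Among the bins other than flip and flop, those with the largest usage changes were small or sparse. In the KO, bin 1 of Gria1, an alternative first exon in the 5′ untranslated region, held 4, 14 and 9 reads in the KO and 13, 9 and 12 in WT Ammon's horn (log2 fold change of usage -0.27 ± 0.33). Bin 6 of Gria4, a 16-base coding stretch, held 33, 31 and 28 reads in the KO and 21, 34 and 18 in WT Ammon's horn (0.30 ± 0.26). Bin 1 of Gria3, from a noncoding transcript, held 20, 9 and 11 reads in the KO and 18, 17 and 19 in WT Ammon's horn (-0.47 ± 0.38). Bin 5 of Gria2, an intron stretch, had 0.34 ± 0.25. None of these passed the test.

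In the dentate gyrus 2 of the 91 bins had an unadjusted p under 0.05, against 3.89% of all bins, and both hold intron sequence. Bin 5 of Gria2 is 82 bases of intron that a small RNA record, Gm25749, joins to the exon before flop. It held 61 reads in the dentate gyrus and 10, 34 and 25 in WT Ammon's horn, with 25, 33 and 25 in the KO. The dentate gyrus was thus the highest of the 7 libraries (log2 fold change of usage 0.996 ± 0.292, unadjusted p = 0.00101, adjusted p = 0.245). Bin 29 of Gria3, a retained intron before its flop exon, held 20 reads in the dentate gyrus and 9, 7 and 7 in WT Ammon's horn (1.20 ± 0.56, adjusted p = 1.0). Beside these bins stands a difference of the whole library in reads that lie in no exon bin. Of all counts, in bins and outside them, they were 4.827% in the dentate gyrus and 4.091%, 3.525% and 3.802% in WT Ammon's horn. In the KO they were 4.13%, 3.994% and 4.204%. A read over a junction can count in several bins, so these are not percentages of reads. The ratios that follow are larger than so few reads can give. The 2 kinds of count thus differ in more than introns, and the ratio does not measure intron reads. The gene-table count divided by the sum of exon bins was 1.48 in the dentate gyrus and 1.40 to 1.45 in WT Ammon's horn for Gria1, 1.38 against 1.28 to 1.33 for Gria2, 1.44 against 1.34 to 1.39 for Gria3, and 1.899 against 1.66 to 1.79 for Gria4. Over 9368 genes with a mean of at least 700 counts the median ratio was 1.47 in the dentate gyrus and 1.40 to 1.46 in WT Ammon's horn. The part of these library differences in the reads of bins 5 and 29 was not tested. The largest usage changes of the other genes in the dentate gyrus, -0.83 ± 0.49 in bin 1 of Gria1 and 0.37 ± 0.39 in bin 6 of Gria4, did not pass.

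Gria4 reads were unevenly spread along its transcript. The annotation holds a short Gria4 transcript that ends in bin 11, a partly coding 590-base terminal exon, before the exons that encode most of the channel, and thus lacks flip and flop. Reads were compared in 5 coding exons that have the same length in all 4 genes (54, 168, 105, 207 and 199 bases in transcript order), a choice made after the values were seen. Of these, 3 lie before and 2 after that point. In Gria4 the reads per base before it were 3.42 ± 0.540 times those after it in the KO, 3.87 times in the dentate gyrus and 3.62 ± 0.195 times in WT Ammon's horn. The other genes had ratios between 1.08 (a Gria2 library of the knockout) and 1.54 (Gria3 in the dentate gyrus), so every Gria4 library lay above every library of the other subunits. Gria4 held 384, 339 and 273 reads before the point and 121, 147 and 98 after it in the KO, 268 and 86 in the dentate gyrus, and 304, 372 and 345 before and 104, 121 and 125 after in WT Ammon's horn. The KO range of the ratio, 2.86 to 3.94, takes in the values of the other groups. Bin 11 itself, 590 bases long, held 105, 111 and 93 reads in the KO, 77 in the dentate gyrus and 136, 116 and 92 in WT Ammon's horn. The exons compared span 327 bases before the point and 406 after it. Bin 1, the 2418-base terminal exon of the longer Gria4 transcripts, held 560, 551 and 477 reads in the KO. It held 386 in the dentate gyrus and 437, 585 and 395 in WT Ammon's horn. Coverage of long terminal exons and short internal exons was not compared. The part of the short transcript in the uneven reads was not tested.

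Set against the Gria2 exon of the same length, Gria4 made up 17.1% ± 5.16 in the KO, 9.19% in the dentate gyrus and 15.7% ± 0.654 in WT Ammon's horn at the 168-base exon before the end of the short transcript. At the 207-base exon after it, Gria4 made up 4.39% ± 0.676 in the KO, 2.11% in the dentate gyrus and 4.06% ± 0.565 in WT Ammon's horn. Gria1 moved between 92.5% and 132% of Gria2 over the 5 exons in the KO, without such a fall, and at the 207-base exon it lay under Gria2 in every library. The share of Gria4 in the 4 subunits, from the exons after the end of the short transcript alone, was 2.11% ± 0.156 in the KO, 1.16% in the dentate gyrus and 1.952% ± 0.0826 in WT Ammon's horn. Usage of bin 11 itself had a log2 fold change of -0.21 ± 0.15 in the KO and -0.26 ± 0.22 in the dentate gyrus, and neither passed.

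**Figure D4:**
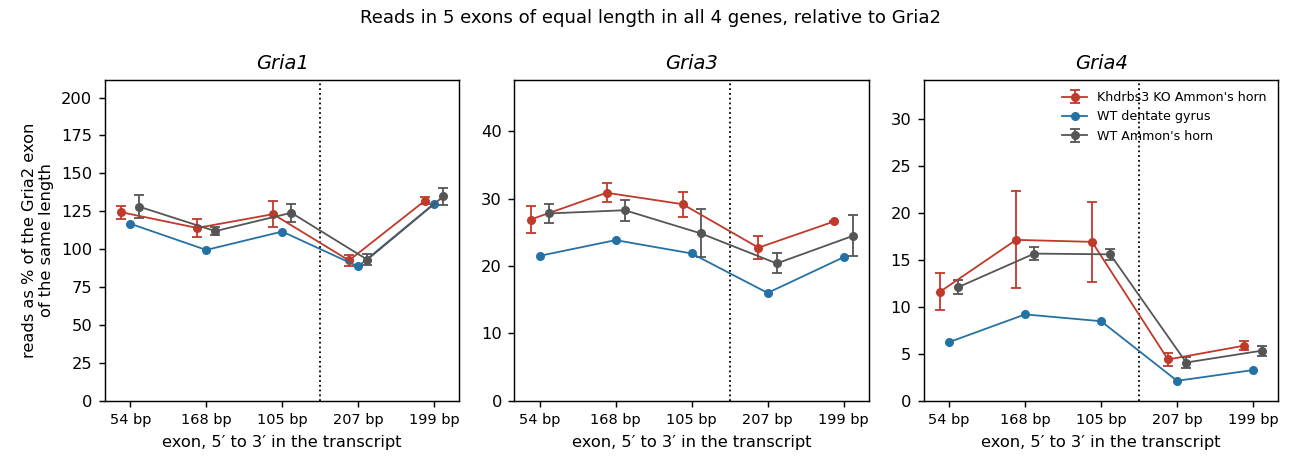
Reads of Gria1, Gria3 and Gria4 as a percentage of the reads of the Gria2 exon of the same length, for 5 coding exons in transcript order. Points are means of 3 libraries with SD for knockout and WT Ammon's horn and the single dentate gyrus library, and the dotted line is the place where the short Gria4 transcript ends. In WT Ammon's horn Gria4 lies at 12.1% to 15.7% before the line and 4.06% to 5.33% after it.

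Native AMPA receptors carry auxiliary subunits that set their gating and surface number, and depend on proteins that assemble, move and anchor them. Of 20 auxiliary subunit genes 19 were tested (Shisa8 was not), together with 12 genes of assembly and turnover, 28 of trafficking and anchoring and 3 RNA editing enzymes. In the KO 0 of these 62 genes passed edgeR's test, where 0.0745% of all genes did, and 0 passed with DESeq2 or limma-voom. At an unadjusted p under 0.05, 8 of the 62 passed, where 8.38% of all genes did. The median log2 fold change was -0.03 for auxiliary subunits, 0.01 for assembly and turnover, 0.00 for trafficking and anchoring and 0.11 for the editing enzymes, against 0.00 over all genes.

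The members nearest the threshold in the KO are given as values. Cnih2, which encodes the cornichon that slows the closing of the channel, had 263, 262 and 271 CPM in the KO and 283, 300 and 317 CPM in WT Ammon's horn (log2 fold change -0.17 ± 0.06, adjusted p = 0.466). Nptx2, a pentraxin that gathers AMPA receptors at synapses and is induced by activity, had 16.1, 17.6 and 16.4 CPM in the KO and 21.4, 22.3 and 18.2 CPM in WT Ammon's horn (-0.31 ± 0.09, adjusted p = 0.392). Adarb2, an enzyme of the editing family with no known activity of its own, had 66.9, 60.5 and 69.9 CPM in the KO and 57.6, 57.9 and 52.4 CPM in WT Ammon's horn (0.23 ± 0.06, adjusted p = 0.383). In assembly and turnover the smallest p belonged to Cnih1, a cornichon of the secretory pathway (0.08 ± 0.07, adjusted p = 0.796). Groups did not overlap for Cnih2, Nptx2 and Adarb2, and did for Cnih1. These genes were named for the smallest p in their lists, and the share of all genes without overlap was not counted.

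In the dentate gyrus 21 of the 62 genes passed, 14 as higher and 7 as lower, where 22.0% of all genes did, 11.2% as higher and 10.9% as lower. Auxiliary subunits passed in both directions, 4 higher and 4 lower of 19, with a median log2 fold change of 0.06 against -0.01 over all genes. Shisa9, also called CKAMP44, which slows recovery of the receptor from desensitisation, had 83.4 CPM in the dentate gyrus and 38.7, 37.0 and 41.9 CPM in WT Ammon's horn (log2 fold change 1.09 ± 0.08, adjusted p = 1e-05). Olfm1, a secreted protein of receptor complexes, rose by 0.67 ± 0.07, Cacng3, the TARP gamma-3, by 0.41 ± 0.10 and Shisa7 by 0.28 ± 0.07. Cnih2 went the other way, with 204 CPM in the dentate gyrus and 283, 300 and 317 CPM in WT Ammon's horn (-0.56 ± 0.08, adjusted p = 0.000915). Olfm2 fell by 1.05, Syndig1, a transmembrane protein of excitatory synapses, by 0.86 and Neto2, which is mainly known as a kainate receptor partner, by 0.39 on the log2 scale. The TARP genes Cacng8 and Cacng2 did not pass. Cacng8, the TARP gamma-8, had 89.3 CPM in the dentate gyrus and 82.2, 88.2 and 82.6 CPM in WT Ammon's horn, and Cacng2, stargazin, had 50.9 CPM in the dentate gyrus and 48.0, 51.7 and 47.1 CPM in WT Ammon's horn; both were chosen as examples after their values were seen.

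Of the 12 genes of assembly and turnover 4 passed in the gene table, all as higher in the dentate gyrus, with a list median of 0.02. In the exon sums 3 of them (Nedd4l, Nedd4 and Frrs1l) passed as higher and 1 other gene of the list, the hydrolase Abhd12, as lower. Frrs1l, which is needed to build the receptor in the endoplasmic reticulum, had 373 CPM in the dentate gyrus and 269, 229 and 278 CPM in WT Ammon's horn (0.53 ± 0.10, adjusted p = 0.00376). Nedd4l rose by 0.84 ± 0.07 and Nedd4 by 0.52 ± 0.07, ubiquitin ligases of which Nedd4 acts on GluA1, and Abhd6, a hydrolase that restrains receptor delivery, by 0.26 ± 0.08.

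Of the 28 genes of trafficking and anchoring 4 were higher and 3 lower, with a median of -0.01. Epb4.1, which encodes protein 4.1R of the spectrin skeleton, rose by 1.06 ± 0.12, Nptx1, a neuronal pentraxin, by 0.67 ± 0.09, Dlg3, the scaffold SAP102, by 0.42 ± 0.07 and Napa, a SNARE adaptor that works with the GluA2 partner NSF, by 0.23 ± 0.07. Arc, an activity-induced gene that drives receptor endocytosis, had 22.1 CPM in the dentate gyrus and 68.2, 56.7 and 43.8 CPM in WT Ammon's horn (-1.35 ± 0.23, adjusted p = 0.00235). Nptx2 had 8.51 CPM in the dentate gyrus and 21.4, 22.3 and 18.2 CPM in WT Ammon's horn (-1.28 ± 0.14), and Kif5a, a kinesin heavy chain, fell by 0.73. Among the editing enzymes Adarb1, which edits the calcium-permeability site of Gria2 mRNA, rose to 157 CPM in the dentate gyrus, against 118, 116 and 123 CPM in WT Ammon's horn (0.40 ± 0.07, adjusted p = 0.00225), and Adarb2 rose by 0.65 ± 0.09, while Adar did not pass (0.11 ± 0.08, adjusted p = 0.371). Editing itself cannot be read from counts.

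**Figure D5:**
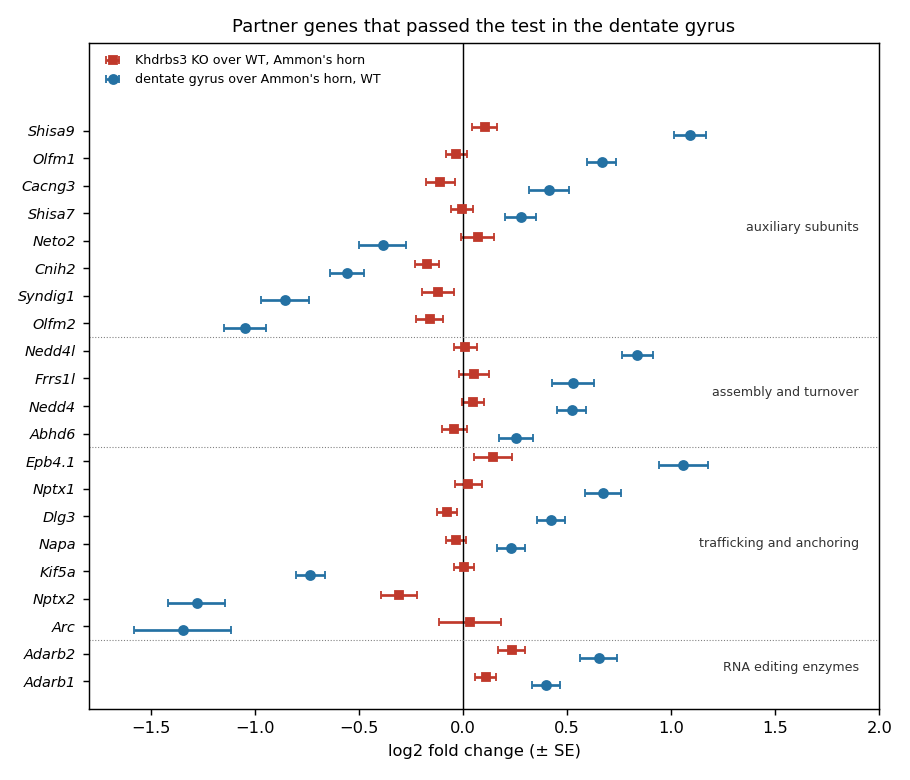
Log2 fold change with SE of the 21 partner genes that passed the test in the dentate gyrus, grouped by list. Squares are the Khdrbs3 knockout over WT Ammon's horn and circles the dentate gyrus over WT Ammon's horn, 2 comparisons that share the WT libraries. Dentate gyrus values run from -1.35 for Arc to 1.09 for Shisa9, and no gene passed in the KO.

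The genes whose profile over the 7 libraries was most like that of each subunit were found by the root mean square difference of centred log2 CPM, among 10807 genes with a mean of at least 10 CPM. For Gria1 they were Tcf20, Gprin1 and Supt6 (0.016, 0.022 and 0.023). For Gria2 they were Mex3c, Ncor1 and Zfp407 (0.021, 0.025 and 0.027). For Gria3 they were Aftph, Gtf2a1 and Mbnl2 (0.025, 0.027 and 0.029), and for Gria4 Rgs3, Zcchc18 and Rbfa (0.024, 0.034 and 0.035). The subunit genes themselves varied by 0.39, 0.51, 0.24 and 0.40 log2 units between their lowest and highest libraries, in the order Gria1 to Gria4, so these likenesses rest on small differences. Rgs3, the nearest to Gria4, had 33.4, 32.0 and 33.4 CPM in the KO, 24.7 CPM in the dentate gyrus and 29.7, 30.5 and 28.2 CPM in WT Ammon's horn.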

How the data were processed

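The authors deposited raw read counts per gene record, in 1 table of 7 libraries, and raw read counts per exon bin, 1 file per library, both without normalisation. Per the submitters' processing notes the genome was mm10, and bedtools 2.17.0, TopHat2 2.0.8b, DESeq2 1.0.19 and Trim Galore 0.3.5 were used, in roles not stated. Strand and the treatment of reads with several matches are not given in the sources used here, and a read over a junction can count in both bins. Bin coordinates were rebuilt from GENCODE M21 models until their number and the gene ends matched the files.

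Counts were tested with edgeR 4.0.16 in R 4.3.3 (TMM, edgeR's low-count filter, quasi-likelihood test, Benjamini-Hochberg threshold 0.05 over all features) and bins with diffSpliceDGE (at least 10 reads in 3 libraries). The knockout fit used 6 libraries and the dentate gyrus fit all 7. The spread between libraries, as a biological coefficient of variation, was 10.6% and 10.8%. Alternatives were DESeq2 1.42.0, limma 3.58.1 (voom), other filters and scalings and each library left out. Only the knockout gene fit and the knockout bin fit were run on simulated data. The dentate gyrus fit, the exon sums and the flip shares were not.

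The members and the gene lists were chosen with earlier results of these data known. Named were the 4 genes, their flip and flop bins, called bins or else the bin with the largest usage change per gene and comparison, up to 8 called partner genes per list (else the smallest p), 2 markers per list and 3 genes of like profile. The list symbols Epb41, Epb41l1 and Epb41l2 were matched to the older Epb4.1, Epb4.1l1 and Epb4.1l2 through RefSeq synonyms.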

Additional observations from a re-analysis of the deposited data

How the results depend on the processing

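No paired analysis was possible because the labels give the libraries no replicate numbers that groups share. The rises of Gria1 and Gria2 in the dentate gyrus passed under all 11 alternatives of the gene table and all 8 of the exon sums, with log2 fold changes of 0.35 to 0.37 and 0.41 to 0.46 in the gene table. Gria4 passed as lower under all 8 alternatives of the exon sums (-0.36 to -0.31). In the gene table it passed only without WT Ammon's horn replicate 3 (-0.24, adjusted p = 0.0309; -0.24 to -0.18 and adjusted p of 0.0309 to 0.142 over 11 alternatives), and Gria3 passed only with DESeq2 (0.21, adjusted p = 0.0462; up to 0.132 elsewhere). In the knockout no subunit gene passed under any alternative, none of the tested Gria bins passed in either comparison under 9 alternatives, and 0 of 62 partner genes passed. In the dentate gyrus 17 to 25 partner genes passed.

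Counts over all features moved more. Knockout gene calls were 119 with DESeq2 and 10 with limma-voom, against 17, and 11 to 55 with 1 library left out, the highest without knockout replicate 2 (55) and the lowest without knockout replicate 1 or wild-type replicate 2 (11). Knockout exon-sum calls were 122 without a low-count filter, against 8, and 4 to 42 with 1 library left out, the highest without knockout replicate 2 and the lowest without wild-type replicate 1. Knockout bin calls were 4 with at least 30 reads, against 5, and 5 to 8 with 1 library left out, the highest without knockout replicate 3 or wild-type replicate 2. Dentate gyrus bin calls were 214 with at least 30 reads and 553 with limma-voom, against 360, and 196 to 512 with 1 library left out, the lowest without wild-type replicate 1. The causes were not tested.

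Values near 0 changed sign. Taken over all bin reads of its gene, the flip difference of the knockout was 0.128 percentage points in Gria3 and 0.0157 in Gria4, the opposite sign to the flip share. With 1 library left out, the flip share difference of Gria2 ran from -0.450 to 1.45 points in the knockout, and that of Gria4 in the dentate gyrus from -0.680 to 1.20. Knockout log2 fold changes ran from -0.0013 to 0.0569 for Gria1 and -0.0129 to 0.0629 for Gria2 in the gene table, and from -0.0349 to 0.0324 and -0.0415 to 0.0462 in the exon sums, where Gria2 stood at -0.0022 without a filter. Usage log2 fold changes with sign changes ran from -0.0412 to 0.127 (Gria1 flip), -0.0633 to 0.1003 (Gria2 flip), -0.0501 to 0.0297 (Gria2 flop), -0.0133 to 0.161 (Gria3 flip) and -0.105 to 0.228 (Gria4 flip) in the knockout, and from -0.0172 to 0.151 (Gria1 flip) in the dentate gyrus.

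Subunit shares depended on which exons were counted, in the order knockout, dentate gyrus and WT Ammon's horn. Coding exons alone gave Gria1 46.4%, 46.9% and 47.1%, Gria2 39.1%, 41.8% and 39.5%, and Gria3 10.8%, 9.06% and 9.92%. Exons of equal length, chosen after seeing the data, gave Gria1 45.8%, 46.2% and 46.5%, Gria2 39.6%, 42.8% and 39.9%, Gria3 10.6%, 8.77% and 9.82%, and Gria4 3.97%, 2.31% and 3.79%. The equal-length exons after the end of the short Gria4 transcript, also chosen after seeing the data, gave Gria1 46.3%, 47.1% and 47.1%, Gria2 41.4%, 43.7% and 41.7%, Gria3 10.2%, 8.06% and 9.29%, and Gria4 2.11%, 1.16% and 1.952%. Flip and flop values of Gria4 rest on 39 to 84 reads per library.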
